A study of Drosophila melanogaster with 144 samples.

Results

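The odorant-binding protein (Obp) genes of Drosophila melanogaster were followed in RNA of whole adult heads. Members were the genes of the count table whose FlyBase symbol begins with Obp and a digit, with Obp99a, Obp99b and Obp56e left out. These 48 genes, of 51 Obp genes and 17381 genes in the table, took 0.365% of all gene counts. Of the 48, 30 passed the filter on low counts and were tested, and 18 did not pass. The gene lush, also an Obp gene by its older name Obp76a, lies outside the rule because of its symbol.

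Odorant-binding proteins are small secreted proteins, and many are made by support cells of olfactory and taste hairs and released into the fluid around the neurons. There they bind or buffer odorants, pheromones and tastants. The genes stand in tandem clusters formed by duplication, and some members are made elsewhere, in glia, fat body or the male reproductive tract.

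Flies came from 2 stocks. DGRP_892 is 1 inbred strain out of the Drosophila Genetic Reference Panel, and its circadian period is long. Canton-S B has a period of 24 h, and the growth protocol writes its culture as w1118; Canton-S B, with the white mutation. All were virgin adults held for 3 days in cycles of light and darkness and for 3 more days in constant darkness, and 1 library held 150 heads of 1 sex. Heads were frozen at 12 circadian times (CT), every 2 h, in 3 collections. The 144 libraries therefore form 48 groups of 3, with 36 libraries for each line and sex, and every line difference is between these 2 stocks.

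Gene counts ran from 11.7 M to 37.3 M per library, with a median of 15.2 M; 48 libraries held 25.5 M or more and the other 96 held 18 M or less. All listed neuronal, glial, fat body, haemocyte, muscle and olfactory marker genes found in the count table were above 0.1 CPM on average. Libraries standing apart were the Canton-S B male CT22 replicate 1 and the DGRP_892 male CT22 replicate 2, which held 6194 and 7134 counts of 20 male accessory gland genes, a list drawn up after the data were seen. No other library held more than 53. Obp22a and Obp56i, known from male seminal fluid, were high in both libraries too. Obp51a, also known from seminal fluid, had 368 counts in the Canton-S B library and 5 in the DGRP_892 library, and at most 2 elsewhere. Results whose calls change are therefore also given without these libraries, for line differences in males as a count only. In bulk heads, fewer cells of a type and less RNA per cell cannot be told apart.

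A few members made up most of the family's RNA. Levels between genes are compared per length, as counts per M of TMM-scaled library size (CPM) per kb of exon. Obp99c led at 1110 CPM per kb, followed by Obp56d at 811, Obp19d at 772, Obp56g at 415, Obp44a at 358 and Obp57c at 327. The lowest tested members were Obp58b at 0.546, Obp56c at 0.486 and Obp56b at 0.442 CPM per kb. Ranked by CPM, not per length, the first 3 genes held 62.3% of the family's sum and the first 10 held 91.6%. The order per length was nearly the same in deeper and shallower libraries (Spearman's rho 0.995 across the 30 genes, which are not independent replicates).

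**Figure D1:**
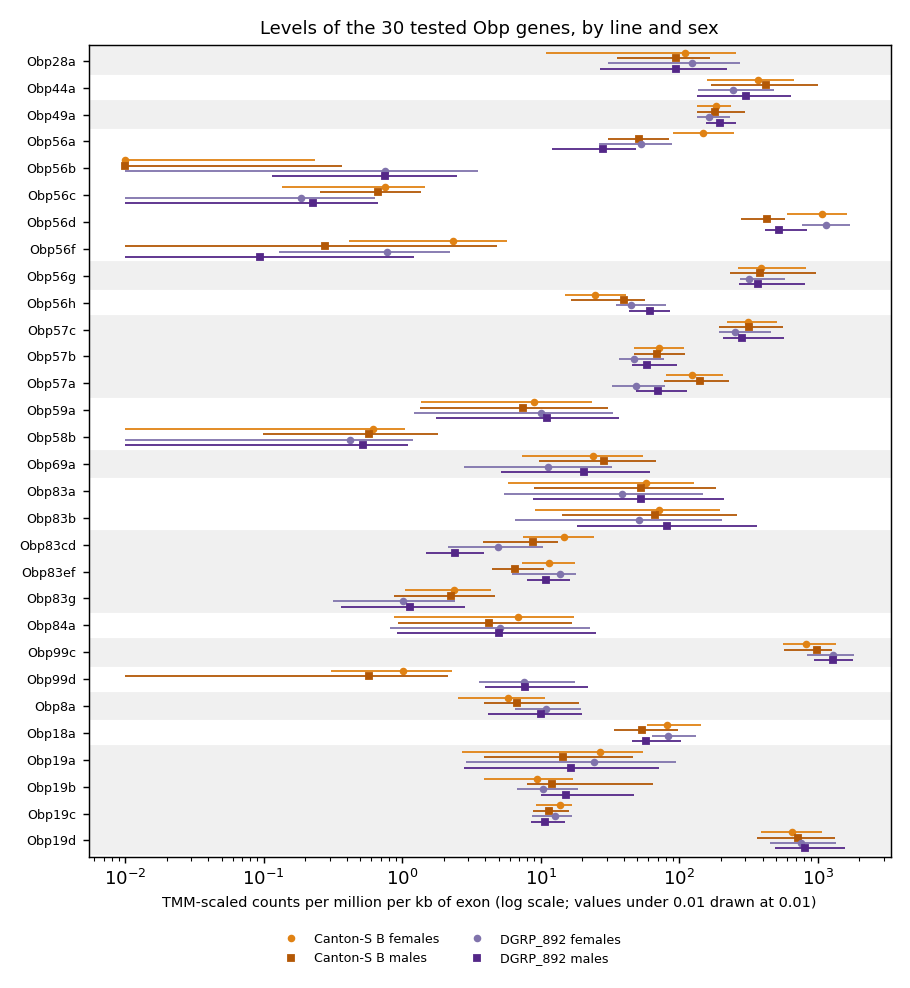
Median level of each tested Obp gene in CPM per kb of exon on a log axis, by line and sex. Bars run from the lowest to the highest library, and genes are ordered along the chromosomes by cluster. The tandem clusters mix levels: by the mean over all libraries, Obp19d at 772 lies beside Obp19a, Obp19b and Obp19c at 12.2 to 24.8.

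Levels were uneven within the tandem clusters, taken as chains of Obp genes each within 20 kb of the next. In the X-chromosome cluster (X:20415744-20420979, release 6 assembly), Obp19d reached 850 CPM ± 236 (SD over 144 libraries), and the summed cluster reached 887 ± 243. On 2R (2R:19697723-19713976), Obp56d gave 748 ± 332 of the 788 ± 348 CPM summed over 5 members, and Obp56b and Obp56c stood at the edge of detection. The taste-organ genes Obp57c, Obp57b and Obp57a (2R:20503584-20505758) were more even, at 327, 65.3 and 100 CPM per kb, and summed to 292 CPM ± 82.3. Beside each other on 3R lie the antennal genes Obp83a and Obp83b (3R:5972155-5976817), which summed to 109.02 CPM ± 82. The nearby Obp83cd, Obp83ef and Obp83g (3R:6108134-6112302) summed to 17.9 ± 5.61. Obp99c, whose chain also holds Obp99a, left out here, stood alone among members there at 743 CPM ± 180.

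The 18 untested members were near the limit of detection. Obp51a had 381 counts in all 144 libraries, and only 8 of them outside the male CT22 libraries with accessory gland RNA. Obp22a kept 17 of 59 counts without those libraries, and Obp56i kept 3 of 24. Obp57e, which bears on the taste of octanoic acid, had 265 counts without them. The other untested members ran from 0 to 202 counts, and Obp50b, Obp50c and Obp57d had none. A count of 0 over all libraries allows up to 3 counts, or 0.00104 CPM, for counting error only; those 3 genes share all their exon bases with another gene on the same strand, so their 0 cannot be read as absence.

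Replicates of the same group differed widely for a set of members, called the antennal members below. They were picked by this spread and by their relation to Orco. No list of antennal Obp genes was used, so they do not stand for all Obp genes of the antenna. The SD of log2 CPM within groups was 1.27 for Obp83a, 1.27 for Obp83b, 1.21 for Obp19a, 1.2 for Obp59a, 1.17 for Obp84a, 0.90 for Obp69a and 0.86 for Obp28a, against a median of 0.35 over members and 0.22 over all genes tested. Obp83a ran from 5.72 to 126.6 CPM in Canton-S B females (median 56.7), from 8.87 to 181 in Canton-S B males (median 52.6), from 5.4 to 146 in DGRP_892 females (median 38.4) and from 8.73 to 208 in DGRP_892 males (median 52.1). All 4 ranges overlapped almost wholly, and each spanned more than an order of magnitude.

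These 7 members rose and fell together with Orco, the shared co-receptor of the odorant receptors, which is expressed in olfactory receptor neurons. The relation was looked at after the data were seen, on log2 CPM as deviations from the 48 group means over 144 libraries, for 30 members. Obp19a gave Pearson's r 0.975 and Spearman's rho 0.980, Obp83a r 0.971 and rho 0.974, Obp83b r 0.968 and rho 0.972, and Obp84a r 0.957 and rho 0.959. Obp59a, known from the sacculus of the antenna, gave r 0.948 and rho 0.955, Obp69a, known to respond to social context, r 0.897 and rho 0.902, and the abundant antennal Obp28a r 0.861 and rho 0.855. Of the 817 exon bases of Obp84a, 663 overlap Dtwd2 on the other strand, and 224 of the 1011 of Obp59a overlap CG30259. The sources used here do not give the strand setting of the read counting, so all values of both genes carry this limit. For all 7, both permutation p values were 1e-05, the smallest that 100000 permutations can give, and 3.3e-05 after Benjamini-Hochberg adjustment over the 30 relations. The permutations treated the 144 deviations as independent although 48 group means had been taken out, so their p values are too small. Without the 2 libraries farthest in Orco, r for these 7 stayed between 0.853 and 0.974, and it was 0.861 or more in the deeper and in the shallower libraries alike.

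Most of the family moved little or not at all with Orco. Weaker relations that passed by these permutations were those of Obp58b (r 0.567), Obp19d (0.433), Obp56d (0.254) and Obp56h (0.222). Their adjusted permutation p values for r were 3.3e-05, 3.3e-05, 0.00669 and 0.0198, and those for rho were also under 0.05. As these p values are too small, the relation of Obp56h, nearest the threshold, is uncertain. Of the 30 members, 19 had an r with Orco within 0.2 of 0. Neighbours could differ in this: Obp19a had r of -0.07 with its neighbour Obp19b and -0.01 with Obp19c, but 0.988 with Obp83a on another chromosome. The neighbours Obp83a and Obp83b both followed Orco and had r of 0.983 with each other. Over 24 pairs from the same cluster the median r was 0.316, and over the other 411 pairs it was 0.101. Among listed genes, 7 of 9 other olfactory neuron genes and 6 of 12 support-cell or perireceptor genes, including a10 (0.962), Jhedup (0.961), Amt (0.957) and lush (0.897), had r of 0.5 or more with Orco. Of 7 taste neuron genes 1 did, the sugar receptor Gr64f (0.596), and ppk23 stood at -0.468. None of 8 fat body, 8 haemocyte, 8 glial, 8 neuronal, 6 muscle and 2 tested male tract genes did. Orco itself ran from 5.07 to 67.8 CPM over the 4 line and sex groups.

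**Figure D2:**
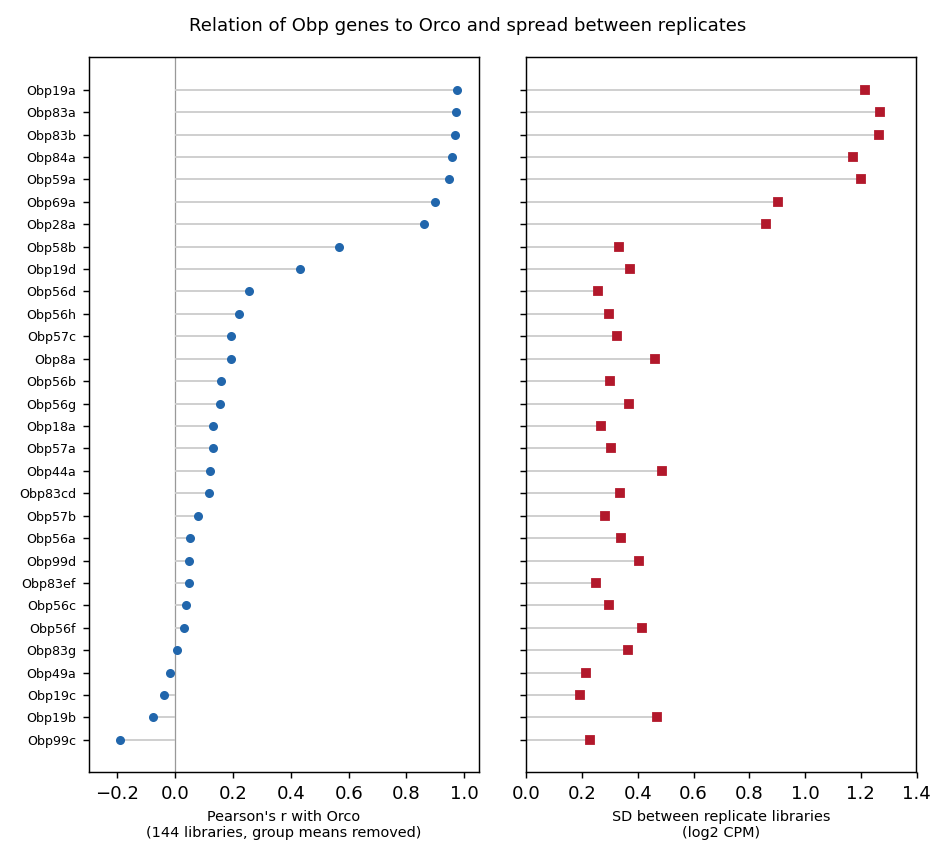
For each tested Obp gene, the correlation of its log2 CPM with that of Orco over 144 libraries, as deviations from the group means (left), and its SD of log2 CPM within groups (right). The 7 antennal members have r from 0.861 to 0.975 and the highest SDs of the family, 0.86 to 1.27.

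Other members varied together in groups of their own. Obp56g, a gene of the labellar taste organs, correlated with Obp57c (r 0.866) and Obp18a (0.864), and Obp57c with Obp57a (0.826) and Obp57b (0.798). Obp44a, made by glia, correlated with Obp19d at 0.751 and with Obp19b at 0.705. Spearman's rho of these 6 pairs ran from 0.658 to 0.852, each permutation p was 1e-05, again the smallest possible, and the adjusted values over 435 pairs were 4.9e-05 or less. All permutation p values in this paragraph are too small for the reason given for Orco. Without the 2 farthest libraries r ran from 0.687 to 0.855, and within a depth class from 0.648 to 0.911. In all, 29 of the 435 pairs had r of 0.7 or more. The mean of 76 ribosomal protein genes, also examined after the data were seen, had r of 0.5 or more with 7 members, up to 0.796 for Obp8a (rho 0.80) and 0.719 for Obp19b (rho 0.729), with permutation p of 1e-05 for both; its r with Orco was 0.0828. The part of either axis in the line and sex differences was examined for Orco alone.

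Between the lines, Obp99d was the member that separated the libraries without overlap. It ran from 0.154 to 1.14 CPM in Canton-S B females (median 0.512), from 0 to 1.06 in Canton-S B males (median 0.289), from 1.80 to 8.90 in DGRP_892 females (median 3.81) and from 2.00 to 11 in DGRP_892 males (median 3.83). Every DGRP_892 library thus exceeded every Canton-S B library, which held for 1.58% of all genes tested and for no other member. The fitted log2 difference was 3.06 ± 0.14 (SE) in females and 3.74 ± 0.15 in males.

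Of the 30 tested members, 20 differed between the lines at an adjusted p under 0.05 (edgeR quasi-likelihood test), against a background of 67.3% of all genes. Of these, 9 were higher in DGRP_892, background 30.9%, and 11 were lower, background 36.4%. The share called was therefore near the background, but the sizes were larger: the median absolute log2 difference was 0.350 over members and 0.153 over all genes. Members also had the larger median SD within groups, 0.354 against 0.221 over all genes. The part of this spread in the larger sizes was not tested. A difference of at least 1 on the log2 scale was called for 8 of the 30 members, against 7.64% of all genes. Among the 8, Obp56b and Obp56c passed the filter on low counts through 1 line only. In females 20 members were called, background 60.2%, and in males 17, background 55.4%. The 17 were all called in females too, with the same sign. Without the libraries with accessory gland RNA, 19 members were called in females and 16 in males, 8 higher and 8 lower in DGRP_892.

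The Obp56 cluster moved in both directions. Obp56a ran from 49.6 to 136.8 CPM in Canton-S B females (median 81.2) and from 14.5 to 48.8 in DGRP_892 females (median 28.8), and from 16.7 to 46.04 (median 28) against 6.66 to 26.9 (median 15.3) in males. It was lower in DGRP_892 by a log2 difference of -1.22 ± 0.06 (edgeR, adjusted p 1.85e-37). Its neighbour Obp56b went the other way, with 35 counts in Canton-S B and 606 in DGRP_892, a fitted log2 difference of 4.10 ± 0.22. It had a count in 29 of 72 Canton-S B and 71 of 72 DGRP_892 libraries. Obp56c had 1086 counts in Canton-S B and 303 in DGRP_892, with a log2 difference of -1.69 ± 0.13. Obp56b passed the filter on low counts only through DGRP_892, as no Canton-S B library exceeded 0.212 CPM. Obp56c passed only through Canton-S B. For both, the filter and the line test drew on the same difference, so the test adds no separate support. Obp56f, known from seminal fluid, had 1237 and 345 counts and a log2 difference of -1.69 ± 0.21. The abundant Obp56d differed little, at 0.29 ± 0.04. Beyond the chain, Obp56h, which in males bears on courtship, was higher in DGRP_892 by 0.80 ± 0.05, and Obp56g, with medians from 158 to 194 CPM in the 4 line and sex groups, did not pass over both sexes (-0.13, edgeR adjusted p 0.0548) but was lower in DGRP_892 females (-0.25 ± 0.09, adjusted p 0.00966; males -0.01).

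The Obp83cd to Obp83g cluster was split as well. Obp83cd, whose protein has a doubled odorant-binding domain, ran from 6.73 to 21.9 CPM in Canton-S B females (median 13.3) and from 1.94 to 9.36 in DGRP_892 females (median 4.39). In males it ran from 3.44 to 12.0 (median 7.95) and from 1.33 to 3.51 (median 2.18). It was lower in DGRP_892 in both sexes, by a log2 difference of -1.49 in females and -1.80 in males, with little overlap. Obp83g, at medians of 1.35 and 1.27 CPM in Canton-S B against 0.576 and 0.654, gave -1.18 ± 0.10 (edgeR adjusted p 1.13e-20). Obp83ef, also double-domained, was higher by 0.50 ± 0.04 (adjusted p 3.32e-19). Exons of Obp83cd and Obp83ef overlap by 92 bases on opposite strands, and the sources used here do not give the strand setting of the read counting.

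Over both sexes, the taste-organ members of the Obp57 cluster were all lower in DGRP_892, in a graded way. Obp57a had medians of 69.1 and 79.3 CPM in Canton-S B females and males and of 27.5 and 39.2 in DGRP_892, a log2 difference of -1.14 ± 0.05 (edgeR adjusted p 1.03e-39). Obp57b differed by -0.38 ± 0.05 and Obp57c by -0.21 ± 0.05. For Obp57c the call was lost without replicate 1 (-0.13) or replicate 3 (-0.13), and within the sexes it was called in females but not in males. Obp49a, made in support cells of taste hairs and known for the suppression of sweet taste by bitter compounds, had medians of 144.3 and 141.97 CPM in Canton-S B and 127.9 and 153 in DGRP_892, and did not pass over both sexes (-0.01). In females alone it was lower in DGRP_892 (-0.12 ± 0.05, edgeR adjusted p 0.0315), and without the libraries with accessory gland RNA this call was lost (-0.10, adjusted p 0.0635). Of the 265 counts of the untested Obp57e outside the male CT22 libraries with accessory gland RNA, 14 and 27 came from DGRP_892 females and males and the rest from Canton-S B.

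Among single genes, the glial Obp44a ran from 171 to 728 CPM in Canton-S B females (median 401), from 182 to 1073 in Canton-S B males (median 455), from 147 to 516 in DGRP_892 females (median 264) and from 144 to 686 in DGRP_892 males (median 327). The ranges overlapped, and the log2 difference was -0.60 ± 0.08 (edgeR adjusted p 1.02e-10); 205 of its 1076 exon bases overlap Pabp2 on the other strand. Obp8a, known from the male tract, was higher in DGRP_892 by 0.74 ± 0.08, with medians of 3.48 and 4.05 CPM in Canton-S B against 6.48 and 6.00. Obp99c, the highest per length, ran from 377 to 903 CPM in Canton-S B (both sexes) and from 556 to 1224 in DGRP_892, and differed by 0.52 ± 0.04 (edgeR adjusted p 4.84e-24). The X-linked Obp19b, known for amino acid taste, Obp19c and Obp19d differed by 0.22, -0.09 and 0.23. The Obp19b call was lost without replicate 3 (0.05), and the Obp19c call without replicate 1 (-0.04) or replicate 2 (-0.07). With ERCC scaling all 3 lost the call. Obp18a did not pass (0.07).

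**Figure D3:**
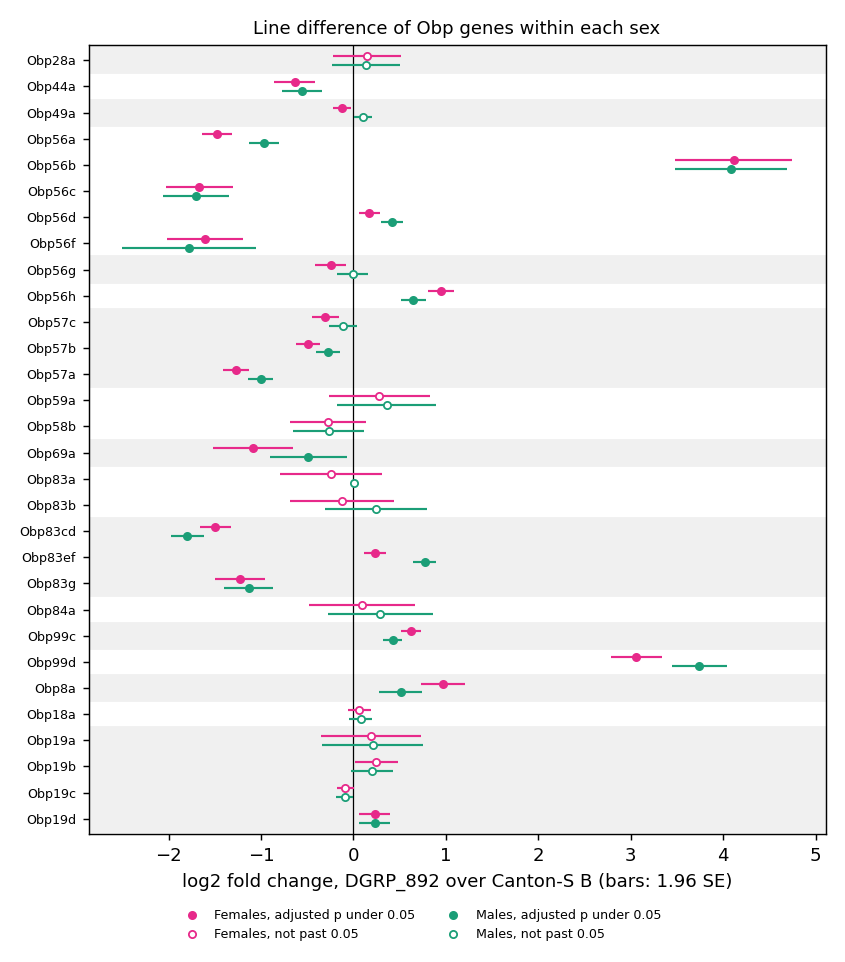
Log2 difference of DGRP_892 over Canton-S B for each tested Obp gene, fitted in females and in males, ordered by cluster. Bars are in proportion to the SE, by the multiple given on the axis label, and points with no bar have no computed SE. Obp99d lies at 3.06 and 3.74, and within the Obp56 and Obp83 clusters neighbours lie on opposite sides of 0.

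The 7 antennal members that moved with Orco mostly did not pass between the lines. Obp83a differed by -0.12 ± 0.20, Obp83b by 0.06 ± 0.20, Obp19a by 0.20 ± 0.20, Obp84a by 0.19 ± 0.21, Obp59a by 0.32 ± 0.20 and Obp28a by 0.14 ± 0.13. With such spread between replicates the intervals were wide: for Obp83a the 95% interval ran from -0.51 to 0.27. Obp69a was the exception. It ran from 3.98 to 29.7 CPM in Canton-S B females (median 13.1), from 5.32 to 37.3 in Canton-S B males (median 15.5), from 1.53 to 17.8 in DGRP_892 females (median 6.16) and from 2.82 to 33.6 in DGRP_892 males (median 11.2), with wide overlap, and its log2 difference was -0.79 ± 0.15 (edgeR adjusted p 3.3e-06); without replicate 3 it was -0.40 (adjusted p 0.0655). Orco itself was higher in DGRP_892, at 29.4 CPM ± 13.8 against 21.5 ± 9.92 (SD, 72 libraries a line; log2 difference 0.45 ± 0.13, edgeR adjusted p 0.00149).

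With the log2 level of Orco as a term in the fit, an alternative added after the data were seen, all 7 were lower in DGRP_892 (edgeR, adjusted p 0.000718 or less). The log2 differences at equal Orco were -1.32 ± 0.07 for Obp69a, -0.80 ± 0.05 for Obp83a, -0.64 ± 0.06 for Obp83b, -0.53 ± 0.05 for Obp19a, -0.53 ± 0.06 for Obp84a, -0.32 ± 0.07 for Obp59a and -0.28 ± 0.08 for Obp28a. Because Orco itself differs between the lines, these values are differences relative to Orco and not differences in level. The 7 were picked by their correlation with Orco in these same libraries. Their shared sign therefore follows in part from the single line difference of Orco and does not count as 7 separate results. The term raised the line calls from 20 to 28 of 30, with 9 higher and 19 lower. The share of all genes called with this term is not given here, so these counts do not set the members apart from other genes.

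The largest sex differences of the family were those of Obp56f, Obp56a and Obp56d, all with more RNA in females. Over both lines, 19 of 30 members were called between the sexes, against 65.6% of all genes (edgeR), 10 higher in males (background 35.9%) and 9 lower (background 29.7%). Scaled by the ERCC spike-in transcripts, 21 were called, 15 higher and 6 lower, and the median log2 difference of all genes moved from 0.03 to 0.23. A difference of at least 1 on the log2 scale was called for 3 members, all lower in males and all in the Obp56 cluster, against 2.74% of all genes. The deeper libraries alone called 10 members. The share of all genes called with ERCC scaling, or in the deeper libraries, is not given here. Those counts of 21 and 10 therefore do not set the members apart from other genes. For no member did the ranges of males and females fail to overlap, background 0.285%.

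Obp56d ran from 557 to 1498 CPM in Canton-S B females (median 985) against 256 to 535 in males (median 396), and from 710 to 1575 (median 1061) against 383 to 770 (median 487) in DGRP_892. Males were lower by a log2 difference of -1.18 ± 0.04 (edgeR adjusted p 1.7e-46). Obp56a, with medians of 81.2 and 28.8 CPM in females against 28 and 15.3 in males, gave -1.26 ± 0.06. Obp56f had 1345 counts in females and 237 in males and gave -2.83 ± 0.20 (edgeR adjusted p 5.89e-24); without the libraries with accessory gland RNA it was -3.06 ± 0.19. Their neighbours Obp56b and Obp56c did not pass.

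Further members were lower in males by less. Obp83cd differed by -0.88 ± 0.06, Obp83ef by -0.57 ± 0.04, Obp18a by -0.52 ± 0.04, Obp99d by -0.38 ± 0.11 and Obp19c by -0.24 ± 0.03. Obp18a had medians of 59.5 and 60.5 CPM in females and 39.9 and 42 in males of Canton-S B and DGRP_892. The Obp99d call was lost without replicate 3 (-0.28), and those of Obp99d (-0.17) and Obp19c (-0.04) with ERCC scaling.

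Obp56h had a higher median in males than in females of each line, 23.7 against 14.6 CPM in Canton-S B and 36.6 against 26.6 in DGRP_892, a log2 difference of 0.52 ± 0.05 (edgeR adjusted p 5.36e-17). Obp19b was higher in males by 0.54 ± 0.08, Obp57a by 0.35 ± 0.05, Obp44a by 0.25 ± 0.08, Obp57b by 0.18 ± 0.05, Obp99c by 0.12 ± 0.04 and Obp49a by 0.11 ± 0.04. Leaving out replicate 3 ended the calls of Obp44a (0.20), Obp99c (0.06) and Obp49a (0.06), and leaving out replicate 1 that of Obp57b (0.10).

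The antennal members did not share a direction. Obp83b was higher in males by 0.62 ± 0.20, Obp69a by 0.57 ± 0.15 and Obp83a by 0.54 ± 0.20, Obp28a was lower by -0.34 ± 0.13, and Obp19a, Obp59a and Obp84a did not pass. Without replicate 2 the first 3 gave 0.33, 0.37 and 0.32 and were not called; Obp83a was also lost without replicate 3 (0.48), and Obp28a without replicate 1 (-0.23) or replicate 2 (-0.31). At equal Orco level, whose own log2 sex difference was 0.02, Obp69a (0.52 ± 0.07), Obp83b (0.50 ± 0.05) and Obp83a (0.42 ± 0.05) were higher in males, and Obp19a (-0.47 ± 0.05), Obp28a (-0.34 ± 0.07) and Obp84a (-0.13 ± 0.06) were lower (edgeR, adjusted p 0.0459 or less).

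**Figure D4:**
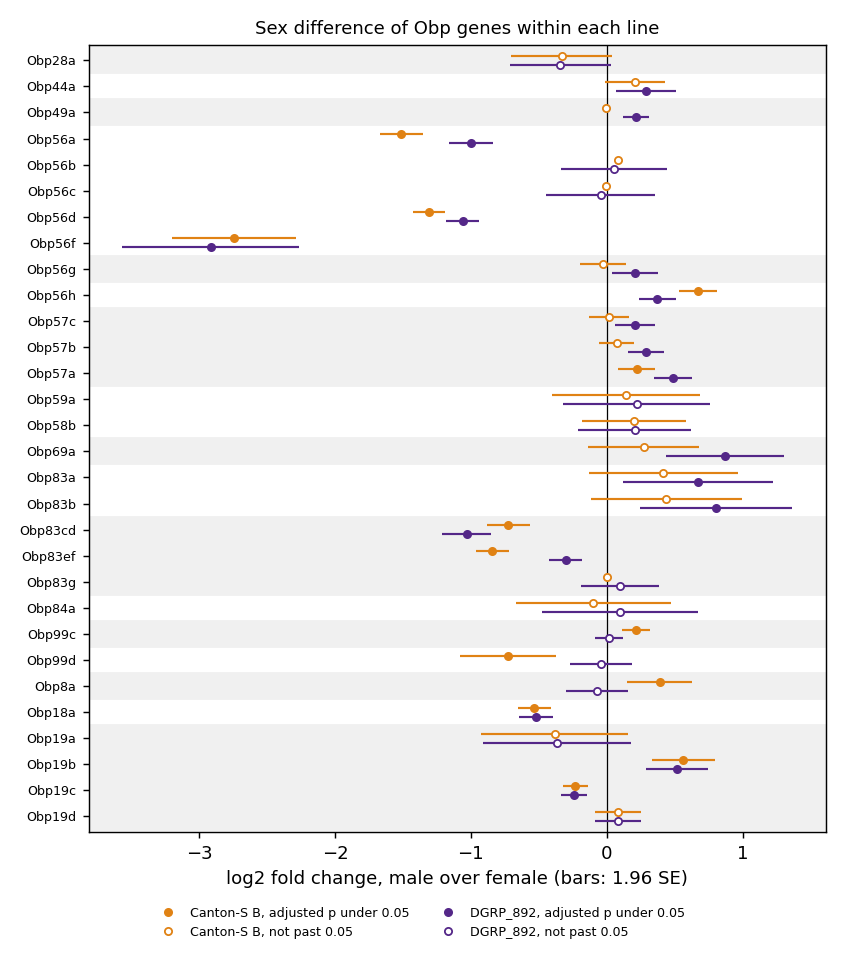
Log2 difference of males over females for each tested Obp gene, fitted in each line, ordered by cluster. Bars are in proportion to the SE, by the multiple given on the axis label, and points with no bar have no computed SE. Obp56a, Obp56d and Obp56f lie farthest below 0.

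The sex difference was called for 13 members in Canton-S B, background 54.6%, and for 18 in DGRP_892, background 56.9%. The direct test of line by sex called 6 members, background 12.7% (edgeR). Obp99d differed between the sexes in Canton-S B by -0.72 ± 0.18 and in DGRP_892 by -0.04, so that its line difference was larger in males by 0.68 ± 0.21 (adjusted p 0.0199); this call was lost without replicate 2 (0.66) or replicate 3 (0.61). For Obp56a the log2 difference between the lines was nearer 0 in males, at -0.96 against -1.48 in females, an interaction of 0.51 ± 0.11 (adjusted p 0.000528), lost without replicate 1 (0.30). Obp83ef had medians of 10.3 CPM in Canton-S B females, 5.89 in Canton-S B males, 12.5 in DGRP_892 females and 9.86 in DGRP_892 males, with an interaction of 0.54 ± 0.09 (adjusted p 1.09e-06).

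Smaller interactions were 0.25 ± 0.08 for Obp56d, 0.22 ± 0.07 for Obp49a and -0.30 ± 0.10 for Obp56h. Each was lost without 1 or another replicate: Obp56d without replicate 2 (0.17) or 3 (0.30), Obp49a without 1 (0.16) or 3 (0.20), and Obp56h without 1 (-0.31) or 2 (-0.21). Without the libraries with accessory gland RNA, 8 members were called; Obp49a was lost (0.20, edgeR adjusted p 0.0504), and Obp57a (0.28), Obp99c (-0.22) and Obp8a (-0.48) were added. With ERCC scaling, and in the deeper libraries alone, all 6 interactions kept their sign and lost the call.

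Few 24-h rhythms were called among the members, as among all genes. A 24-h cosine was called for 1 of 30 members in Canton-S B, background 6.01%, and for 0 in DGRP_892, background 0.477% (edgeR); at an unadjusted p under 0.05 there were 4 in each line, backgrounds 17.4% and 11.6%. The median fitted amplitude, the log2 distance from mean to peak, was 0.082 over members and 0.055 over all genes in Canton-S B, and 0.134 and 0.060 in DGRP_892. Among the antennal members with wide spread between replicates, the means over 6 libraries in DGRP_892 ran from 4.42 CPM at CT4 to 9.36 at CT12 for Obp84a, from 34.9 at CT8 to 73.8 at CT12 for Obp83b and from 12.5 at CT8 to 25.8 at CT12 for Obp19a. None of these 3 passed (edgeR adjusted p 0.527 to 0.615), and a rhythm of that size could not be told from the replicate spread.

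The called member was Obp99d in Canton-S B, where its level was lowest. Its mean over 6 libraries was highest at CT8 (0.654 CPM) and lowest at CT20 (0.246 CPM), with a fitted amplitude of 0.49 and a peak at CT 6.48 (edgeR adjusted p 0.0166). In DGRP_892 the means ran from 3.42 CPM at CT4 to 5.18 CPM at CT6, neighbouring times, with no rhythm called. The direct test between the lines did not pass after adjustment (amplitude of the difference 0.48, unadjusted p 0.00804, adjusted p 0.623). The Canton-S B call was lost without replicate 1 (0.33, adjusted p 0.693) or replicate 3 (0.52, adjusted p 0.133), with ERCC scaling (0.42, adjusted p 0.286), and in either depth class alone.

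Within Canton-S B males alone, Obp49a passed with an amplitude of 0.20 and a peak at CT 17 (edgeR adjusted p 0.0155, background 4.62%), from 120 CPM ± 14 at CT8 to 181 ± 44 at CT18 (SD, n = 3). Line by time called 0 of 30 members, background 0.156%, and 2 at an unadjusted p under 0.05, background 4.97%. Sex by time called 0, background 0.413%, and 2 at an unadjusted p under 0.05, background 13.3%. Obp99c, abundant at all times, had its lowest mean at CT22 and its highest at CT16 in both lines, 532 to 688 CPM in Canton-S B and 759 to 1023 in DGRP_892, without a rhythm called in either.

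**Figure D5:**
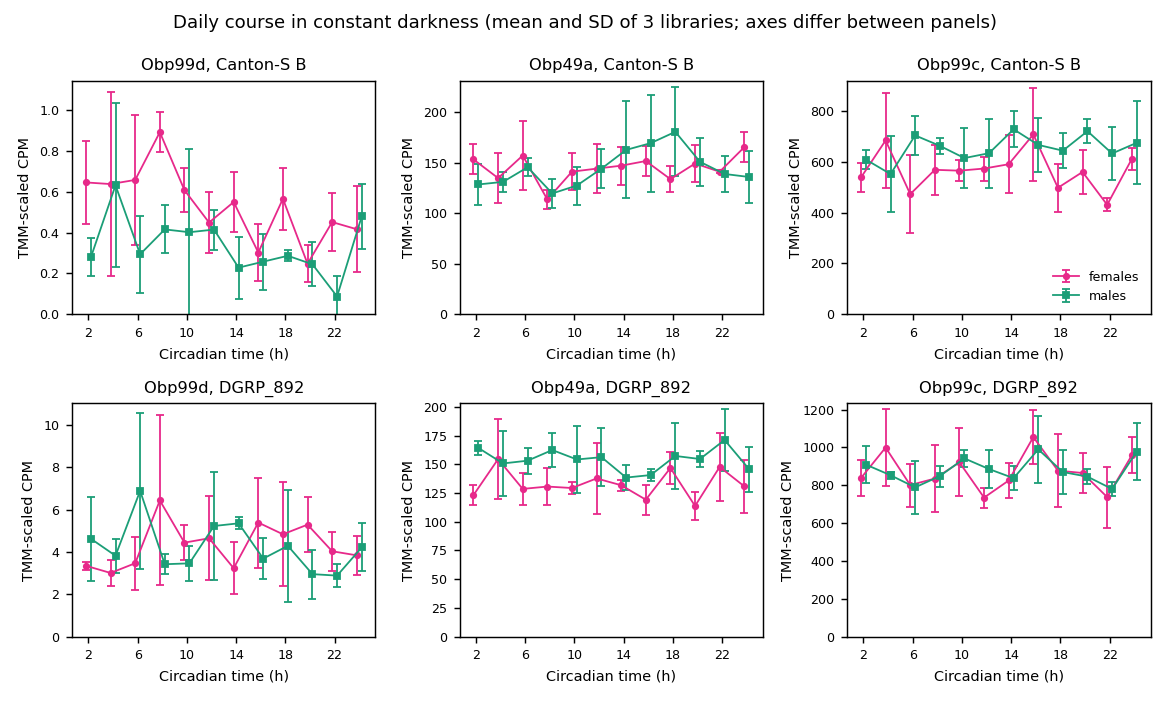
Level in CPM of Obp99d, Obp49a and Obp99c against circadian time in each line, females and males apart, as mean ± SD of 3 libraries. Obp99d in Canton-S B is highest on average at CT8 (0.654 CPM over both sexes) and lies below DGRP_892 at every time.

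Genes of the cells that could carry Obp RNA also differed between the groups, as did most genes tested. Of all genes tested, 30.9% were called higher and 36.4% lower in DGRP_892, and 35.9% higher and 29.7% lower in males. The lists were not tested against these shares. Of 10 olfactory neuron genes, 6 were higher and 0 lower in DGRP_892 (edgeR), among them the ionotropic receptor Ir93a (log2 difference 1.42 ± 0.08) and the odorant receptors Or42b (0.98 ± 0.20) and Or47b (0.60 ± 0.23). Of 12 support-cell and perireceptor genes, 5 were higher and 4 lower, with the cytochrome P450 Cyp6w1 at 1.26 ± 0.04 and the esterase Jhedup at 0.56 ± 0.17. Of 7 tested taste neuron genes, 3 were higher and 1 lower, with the sugar receptor Gr64f at 0.61 ± 0.11 and the channel subunit ppk29 at -0.84 ± 0.06. Between the sexes, 2 olfactory neuron genes were higher and 1 lower in males, with Or47b at 1.19 ± 0.22. Of the support-cell genes 6 were higher and 1 lower, with lush at 0.52 ± 0.14, and of the taste neuron genes 0 were higher and 2 lower.

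Fat body, haemocyte, glial, neuronal and muscle genes differed too, and the same shares over all genes tested apply. Of 8 fat body genes, 6 were higher and 1 lower in DGRP_892, and 1 was higher and 7 lower in males. Their summed level had medians of 8794 CPM in Canton-S B females, 6199 in Canton-S B males, 20996 in DGRP_892 females and 13601 in DGRP_892 males, and ranges of 5821 to 13221, 3921 to 8573, 14899 to 29829 and 8197 to 18834. Of 8 haemocyte genes, 1 was higher and 6 lower in DGRP_892 and 8 were lower in males. Of 8 glial genes, 1 was higher and 5 lower in DGRP_892 and 6 were higher in males; of 8 neuronal genes, 4 were lower in DGRP_892 and 7 higher in males; of 6 muscle genes, 6 were lower in DGRP_892, and 1 was higher and 5 lower in males. The part of these cell types in the Obp differences was not tested.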

How the data were processed

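RNA of heads was sequenced as stranded poly(A) libraries; per the submitters' processing notes the tools were FastQC 0.11.5, STAR 2.5.3a and featureCounts 1.5.2, and per the labels reads were mapped to FlyBase release 6. Strand setting and treatment of multiply mapping reads are not given in the sources used here. The deposited table holds the authors' raw read counts per gene, which were used for all main values. A second deposited table, batch-corrected and TMM-normalized by the authors, has some values below 0 and was treated as a score; it served only as an alternative (limma 3.58.1, log2(value + 20)), which understates changes of low genes.

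Symbols and exon lengths came from the Ensembl release 115 annotation of the release 6 assembly, which named 17239 of 17381 genes. ERCC transcripts, 0.387% of all counts, stayed out of library sizes. Genes with low counts were dropped by filterByExpr over the 48 groups, with a minimum count of 10 and a minimum total of 15, and 10894 were left. The quasi-likelihood tests (edgeR 4.0.16, R 4.3.3, TMM scaling, robust fit) ran with all 144 libraries, as contrasts of group means or 24-h cosines, with Benjamini-Hochberg adjustment over these genes and a threshold of 0.05, and were tested on simulated data. Levels are counts per M of TMM-scaled library size (CPM); log2 levels add 0.5 CPM. SEs are the size of the log2 difference over the square root of F. Figures used matplotlib 3.10.9.

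Members, clusters and lists were chosen with earlier results of these data known. Named are the member highest per length in each cluster, members with a called log2 difference of at least 1 between lines or sexes, of at least 0.5 for line by sex, or with a called amplitude of at least 0.2, and listed genes with a called difference of at least 0.5; others named were chosen after their values were seen. Replicate numbers mark 3 repeats of the whole procedure per the labels, which do not say that they share animals. Over 72 pairs of same-numbered libraries between the lines, correlations of deviations from the group means ran from -0.678 to 0.633 (median 0.0770), and 34 were over 0.1; between the sexes the median was 0.0760. Alternatives were DESeq2 1.42.0, other scalings, no filter, replicate block, library runs, depth classes, left-out replicates, and those named as added.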

Additional observations from a re-analysis of the deposited data

Results flagged for a closer look

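The line difference depended on sex for 3 members with an interaction of at least 0.5, by the direct test of the line difference in males minus that in females (edgeR, adjusted over all genes tested). Obp99d gave 0.68 on the log2 scale, Obp83ef 0.54 and Obp56a 0.51. For Obp83ef both lines had higher levels in females, by a log2 difference of -0.84 in Canton-S B and -0.30 in DGRP_892. The Obp99d interaction was 0.37 in the deeper libraries and 0.74 in the shallower ones, and was called in neither.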

How the results depend on the processing

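No call of a named member between the lines or sexes was lost with DESeq2 size factors, the DESeq2 Wald test or the replicate block. With the replicate block, members called were 21 between the lines, 20 in females, 17 in males, 20 between the sexes, 8 for line by sex and 1 for a rhythm in Canton-S B. Line calls ran from 17 with ERCC scaling to 28 with the Orco term, and from 20 to 22 leaving out 1 replicate; sex calls ran from 14 to 18 leaving out 1 replicate. The deeper libraries alone, 48 of 144, called 10 members between the sexes, and there the sex difference of Obp49a turned to -0.031. Line by sex was the least stable: 0 members with ERCC scaling, 0 in the deeper libraries, 3 in the shallower libraries, and from 3 to 5 leaving out 1 replicate. For the rhythm in Canton-S B, 0 members were called with the 12 times as levels, 0 with ERCC scaling, 0 in the deeper and 0 in the shallower libraries, 2 with the library run as a term, 3 with no filter on low counts, and from 0 to 1 leaving out 1 replicate. With no filter, line by time called 1 member and sex by time 1. Over the 20 members called between the lines, 268 of 280 alternative values kept sign and call and 12 lost the call; over the 19 called between the sexes 237 did and 28 lost it. The cause of these changes was not tested. The share of all genes called under each alternative, or without the libraries with accessory gland RNA, is not given here. Counts of members under them therefore do not set the members apart from other genes. Depth limits the rarest tested members: over all 144 libraries Obp56b had 641 counts, Obp58b 1072, Obp56c 1389, Obp56f 1582, Obp83g 2820 and Obp99d 6221.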
